A study of Mus musculus with 9 samples.

Results

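The comparison is of colon RNA from mice given azoxymethane and dextran sodium sulfate (AOM/DSS) with colon RNA from untreated mice. The labels alone chose its arrays: the 3 titled Sham and the 3 titled Mock, 6 of the 9 arrays of the series, each with 26423 probes. All groups were female BALB/c mice. Sham mice had 1 intraperitoneal injection of AOM, a DNA-alkylating carcinogen, at 12.5 mg/kg on day 1. They drank 2.5% DSS, a polymer that injures the gut lining, for 5 days from day 8 and then plain water for 16 days, with 3 additional DSS cycles. Sham therefore names the carcinogen group and not a vehicle control, and Mock mice are labelled as having no treatment. The other 3 arrays, titled Vanillin, come from mice on the same AOM/DSS course with 100 mg/kg oral vanillin for 91 days, and serve here only to show where Sham differed from them. The sources used here do not give age, the stretch of colon taken, or whether tumours or flat mucosa were sampled. They also do not say that each array stands for a mouse of its own, so p-values cover only the spread from array to array, part of which could be technical.

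The colon lining renews itself from stem cells at the crypt base, which Wnt signalling through beta-catenin keeps dividing. Their daughters move up the crypt and become absorptive colonocytes, which take up salt, water and butyrate, or secretory cells such as mucus-making goblet cells. AOM is known to cause mutations that stabilise beta-catenin, and repeated DSS injury adds cycles of ulceration, leukocyte entry and repair, so that tumours form mainly in the distal colon. Fetal and wound-repair genes, matrix proteases and antimicrobial lectins are known to be switched on in such tissue.

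Values are probe intensities on a linear scale, and a change is the difference between group means of log2(intensity + 16), Sham minus Mock, with its standard error (SE) from limma over 3 arrays per group. Array values are given in the order of replicates 1, 2 and 3. A probe was called, and a gene is said to have risen or fallen, at a Benjamini-Hochberg adjusted p under 0.05 over all probes. Of all probes 59.7% were called, 36.5% higher and 23.2% lower in Sham, and 5.9% and 7.57% were called with a change of at least 1. The arrays of the groups did not overlap for 67.1% of probes, with all Sham above all Mock arrays for 41.2% and below for 25.9%. A gene was represented by its brightest probe, and over the 17742 genes so measured 39.3% rose, 25.3% fell and the median change was 0.11. Arrays of a group were very alike (r of 0.995 to 0.998 over all probes), and the median SD over genes was 0.058 in Mock and 0.076 in Sham. With so narrow a spread small changes were called too, so the sizes matter beside the calls. Between 30 and 42 probes per array read above 65000, the top of the scanner's range, where a change is compressed.

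The labelled tissue was checked against marker genes first. Intestinal epithelial genes were bright in both groups: Epcam had 63711 in Mock and 60542 in Sham, Lgals4 63294 and 65508, and the colonic secretory gene Clca1 64111 and 65495. The keratin probes Krt8 (means of 4.5 and under 0) and Krt18 (81.3 and 52.6) were near the bottom of the range in every array, so they tell nothing of the epithelium here. Mock arrays also carried strong signal of skin, muscle and fat markers. The 18 squamous epithelium markers summed to an intensity of 658497 to 667600 per array in Mock and 40426 to 41192 in Sham, and all 18 fell (median -4.96). The 10 skeletal muscle genes summed to 174307 to 182799 and 4181 to 4302, the 17 hair follicle genes to 129094 to 134876 and 3772 to 4021, and the 14 adipocyte genes to 148654 to 149841 and 27194 to 28155. No squamous or hair follicle marker had a mean under 50 in Mock, whereas 4 and 3 of them did in Sham. In Vanillin the squamous markers again summed to 363337 to 414913, above Sham, and the other lists named here lay above Sham too. Fewer cells of a type and less RNA per cell cannot be told apart in whole-tissue RNA, here or in any result that follows. Some genes below are said to be in the order of one of these lists. The part of that tissue in their changes was not tested.

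**Figure D1:**
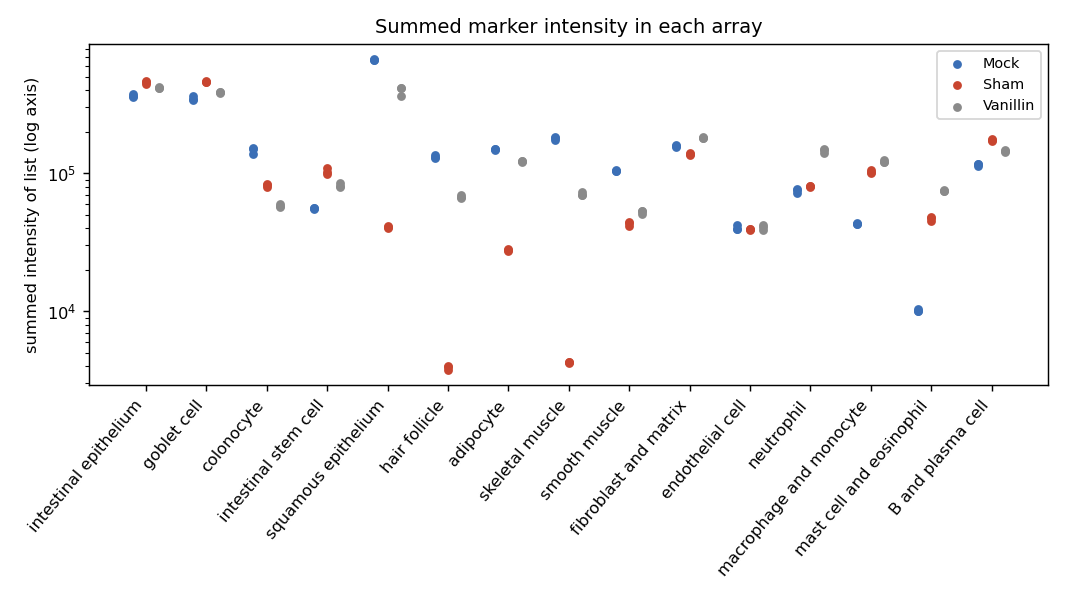
Summed intensity of 15 marker lists (log axis) in each array, with Mock in blue, Sham in red and Vanillin in grey, 1 point per array. Squamous epithelium, hair follicle, adipocyte and skeletal muscle sums are lowest in the 3 Sham arrays, while intestinal epithelium sums are 357162 to 373042 in Mock and 445152 to 468690 in Sham.

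To set the mixture beside the results, every array was also centred on the mean of the 16 intestinal epithelium markers, which was 13.39 in Sham and 12.87 in Mock on the log2 scale. This epithelial centring lowers every change by 0.514, so that 13.9% of called probes are higher in Sham, against 61.1% as deposited. Any rise smaller than this shift turns into a decrease. Of all 26423 probes 2820 were then called higher and 17531 lower. The centred counts of every list below are to be read beside that share, since the same shift is taken from each gene. Of the 16 markers themselves, 9 rose and 1 fell, leaving 6 without a call (median 0.36), and with epithelial centring 5 were higher and 7 lower (median -0.16). Among them Cdx2, the homeobox regulator of intestinal identity, rose by 3.13. This rise weighs on the mean, and the shift of 0.514 exceeds the median marker change of 0.36. The dim Krt8 and Krt18 probes enter the mean too. Vil1, or villin, of the brush border, rose by 0.58 and was not called with epithelial centring (adjusted p = 0.581). Krt20, a keratin of surface colonocytes, was not called (0.26, SE 0.116, adjusted p = 0.0853), but was without Mock replicate 3 (adjusted p = 0.0451) or Sham replicate 3 (adjusted p = 0.0314). Counts of list members in Sham against Mock are given under both scalings, apart from the squamous, hair follicle and skeletal muscle lists, where no member rose under either. Of 10 listed Paneth cell markers only Mmp7 and Pla2g2a were measured, and both rose under either scaling.

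Proteases and antimicrobial lectins were among the genes that rose most. Mmp7, a matrix protease also known as matrilysin and often made by intestinal tumour cells, had intensities of 24.2, 27 and 26.9 in Mock and 11647, 13912 and 12704 in Sham. Mmp10, or stromelysin-2, a protease of wounded epithelium, had 41.3, 39.6 and 41.6 in Mock and 9962, 8825 and 10753 in Sham. Every Mock array was near background for both genes and every Sham array was bright, with changes of 8.24 (SE 0.068, adjusted p = 1.52e-12) and 7.44 (SE 0.080, adjusted p = 5.69e-12). Mcpt2, a protease of mucosal mast cells, had 55, 50.6 and 51.1 in Mock and 17915, 17142 and 16917 in Sham, a change of 7.99 (SE 0.057, adjusted p = 1.07e-12) from Mock arrays near background. Reg3g and Reg3b encode lectins that kill or bind gut bacteria. Reg3g had 92.4, 86.6 and 94.2 in Mock and 13774, 13495 and 14273 in Sham, and Reg3b had 132, 134 and 139 in Mock and 14443, 15063 and 15920.2 in Sham. The groups were far apart in both, with changes of 7.02 (SE 0.086, adjusted p = 1.28e-11) and 6.65 (SE 0.051, adjusted p = 1.31e-12). Pla2g2a, an antibacterial phospholipase of Paneth cells, went from a mean of 1794 to 65509, the top of the scanner's range, and its change of 5.18 is therefore a compressed one.

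Fetal and developmental genes stood among the 30 largest increases, which ran from 4.17 to 8.24. Afp, the alpha-fetoprotein of fetal liver and gut, had 28, 25.8 and 28 in Mock and 1193, 1211 and 1172 in Sham. It was near background in each Mock array and clearly lit in each Sham array (change 4.80, SE 0.049, adjusted p = 4.85e-12). The homeobox genes Evx1 and Tlx2 rose by 4.24 (SE 0.104) and 4.66 (SE 0.100). Cdx2, which is not among the 30, had 487, 453 and 478 in Mock and 4229, 4099 and 4468 in Sham. Cdx2 and Evx1 were thus already measurable in Mock, where Evx1 had a mean of 254, whereas Tlx2 had a Mock mean of 35.4. Msln, or mesothelin, a surface protein of mesothelium that is also made by regenerating and neoplastic epithelium, rose by 4.38 (SE 0.079, adjusted p = 1.42e-10). Of 7 mesothelium markers measured, Msln included, 5 rose and 2 fell (median 1.64). With epithelial centring 5 were higher and 2 lower (median 1.12). As deposited Upk1b was at 2.49, Upk3b at 1.64, Gpm6a at -0.91 and Rspo1 at -2.19, and the part of that tissue in the Msln change was not tested. Prkg2, a cGMP-dependent kinase of the intestinal epithelium that acts in chloride secretion, rose by 4.79 (SE 0.047). Pnliprp1 and Pnliprp2, relatives of pancreatic lipase, rose by 6.67 and 4.43, while Pnlip itself was at background (9 in Mock and 14.6 in Sham). The 8 pancreatic acinar markers summed to 21139 to 24637 in Mock and 16613 to 17373 in Sham, and of 8 such markers 1 rose and 3 fell, leaving 4 without a call (median 0.10), and with epithelial centring 0 were higher and 6 lower (median -0.41). Pnlip was itself called when Sham replicate 2 was left out (adjusted p = 0.000672), and 2 of the markers were then higher, as they were without Mock replicate 1, Vanillin replicate 1 or Vanillin replicate 3.

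Other genes among the 30 were less familiar in colon. R3hdml rose by 5.06, Khdc1a by 4.84, Erich3 by 5.77, Trim10 by 4.22 and Otop1, a proton channel, by 5.52 (4.26 on its second probe). Ceacam12, a carcinoembryonic antigen relative, rose by 5.18 on its brightest probe and by as little as 0.58 on another. The cytotoxic protease Gzmb had 109, 142 and 139 in Mock and 2599.9, 2611 and 2612 in Sham, a change of 4.17 (SE 0.086, adjusted p = 3.55e-10). Of the 30 genes, 15 were lower and 9 higher in Vanillin than in Sham in the same fit, where 32.2% of all probes were called lower and 15.7% higher (47.9% in all). High Sham values picked the 30 and enter this comparison too, so the counts are no test.

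**Figure D2:**
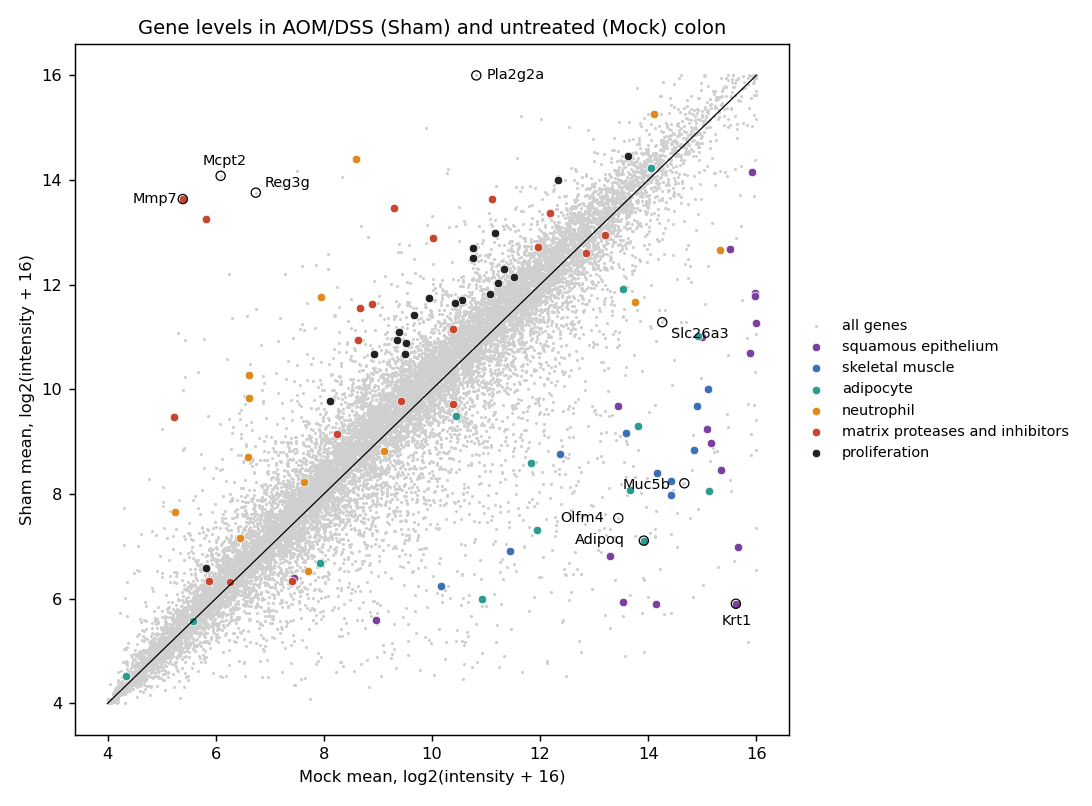
Mean log2(intensity + 16) of each of 17742 genes in Mock (x axis) and Sham (y axis), n = 3 arrays each, with the line of equality and members of 6 lists in colour. Mmp7, Mcpt2 and Reg3g lie far above the line, and Krt1, Adipoq, Muc5b and Olfm4 far below it.

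Most crypt stem cell genes rose, and Olfm4 fell. Of 15 stem cell markers, 11 rose and 1 fell, leaving 3 without a call (median 0.97). Lgr5, the R-spondin receptor that marks crypt base stem cells, had 939.6, 952 and 916 in Mock and 7524, 7274 and 6488 in Sham. Its Sham arrays were all several times brighter than its Mock arrays (change 2.90, SE 0.066, adjusted p = 6.70e-10). Ascl2, a transcription factor of the same cells, had 1934, 1766 and 1813 in Mock and 6883, 6836 and 6551 in Sham, and rose by 1.87 (SE 0.054). Smoc2 rose by 1.92, Rnf43, a ubiquitin ligase that removes Wnt receptors, by 2.40, and Sox9 by 1.25. Prom1 rose by 1.26, though another of its probes gave -0.03. Olfm4, a secreted glycoprotein known in mouse from crypt base columnar cells of small intestine, ran the other way. It had 11220.1, 10988 and 11273 in Mock and 178, 166 and 167 in Sham, a change of -5.91 (SE 0.056, adjusted p = 3.36e-12). In Vanillin it was also low, at 319, 280.4 and 305. With epithelial centring the 15 markers were 9 higher and 4 lower (median 0.46).

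Wnt antagonists and feedback genes moved both ways. Of 19 measured antagonists and targets of Wnt signalling, 11 rose and 5 fell, leaving 3 without a call (median 0.65), and with epithelial centring they were 9 higher and 8 lower (median 0.14). Axin2, Nkd1 and the T-cell factor genes Lef1 and Tcf7 were among those that rose. Axin2, a scaffold that destroys beta-catenin, had 905, 879.9 and 909 in Mock and 4403, 4543 and 4416 in Sham, with no overlap of the groups and a change of 2.29 (SE 0.045, adjusted p = 2.40e-10). Nkd1, which binds Dishevelled, rose by 3.96 (2.19 on its weaker probe), Lef1 by 2.32 and Tcf7 by 1.67. Sp5, a transcription factor induced by Wnt, had 55, 66.5 and 58.2 in Mock and 4763, 4801 and 4548 in Sham, which is a change of 5.96 (SE 0.065, adjusted p = 6.43e-12). The secreted inhibitors differed in direction. Wif1, which binds Wnt ligands, rose by 5.11 (SE 0.057) to a mean of 32586, and Dkk2 rose by 3.18 (SE 0.055). The Frizzled-related proteins fell, with changes of -1.29 in Sfrp2, -1.11 in Sfrp5 and -0.65 in Sfrp1. Nkd2, a relative of Nkd1, fell by 1.05 (-1.91 on its second probe), and Kremen1, a Dickkopf receptor, fell by 0.64. Dkk1 and Dkk4 were dim, at 12.7 and 45.2 in Mock, and were not called.

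Sp5 had the largest rise of the Wnt list, and its promoter is shown because it holds the letters that T-cell factors, the DNA-binding partners of beta-catenin, recognise. Promoter windows of 250 bases before to 50 after the start were taken from RefSeq (build GRCm38.p6), 32851 in all. The motif CTTTGAT, searched on both strands, was in 3.7% of them and in 3.5% of the 13980 genes on the array that have a window. It was in 1 of the 8 risers of the list that have a window, which was Sp5. The match begins 104 bases before the start, on the plus strand of chromosome 2, and is in capitals.
Sp5 (chr2:70474673-70474972): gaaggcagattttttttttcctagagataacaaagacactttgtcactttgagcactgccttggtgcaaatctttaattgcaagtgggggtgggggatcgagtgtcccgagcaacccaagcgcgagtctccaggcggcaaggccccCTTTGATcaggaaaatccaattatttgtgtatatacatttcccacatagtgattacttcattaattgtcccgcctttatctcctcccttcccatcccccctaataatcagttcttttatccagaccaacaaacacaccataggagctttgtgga

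Genes of neoplastic and progenitor intestine mostly rose. Of 32 such genes, 21 rose and 6 fell, leaving 5 without a call (median 0.72), and with epithelial centring 16 higher and 10 lower (median 0.21). Prox1, a homeobox gene of intestinal tumours that also marks lymphatic endothelium, had 193, 174 and 179.8 in Mock and 2318, 2323 and 2053 in Sham (change 3.50, SE 0.069, adjusted p = 2.63e-10). Of 11 endothelial markers, Prox1 included, 3 rose and 4 fell, leaving 4 without a call (median -0.06), and with epithelial centring 1 were higher and 9 lower (median -0.58). The lymphatic receptor gene Flt4 had a change of -0.13 (SE 0.098, adjusted p = 0.296). Onecut2 rose by 3.43, Sox4 by 2.64 and the gastric gene Gkn1 by 1.92. Tff2, a trefoil peptide of gastric-type mucus, fell by 2.32, and Fabp5, a fatty acid carrier abundant in keratinocytes, fell by 6.35, from 28873 to 338. Dpep1, a membrane dipeptidase, fell by 1.16, and Tspan1, Efnb1 and Efnb2 had changes of -0.50, -0.46 and -0.30.

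All measured cell cycle genes rose. Of 26 listed genes 20 had a probe, and 20 rose and 0 fell (median 1.48), or 17 higher and 0 lower (median 0.97) with epithelial centring. Top2a, the topoisomerase of dividing cells, had 1771, 1677 and 1679.8 in Mock and 6710.3, 6594 and 6559 in Sham, and Ccnd1, a cyclin and Wnt target, had 5138, 5237 and 5125 in Mock and 16462, 17227 and 15639.8 in Sham. Neither gene overlapped between groups, with changes of 1.94 (SE 0.046) and 1.67 (SE 0.125). Foxm1, which drives mitotic genes, rose by 1.65, Plk1 by 1.79 and Ccne1 by 1.37. Birc5, or survivin, rose by 1.75 on its brightest probe and had -0.57 on another.

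Cell cycle inhibitors moved separately from each other. Cdkn2a, the locus of p16 and Arf, had 540.3, 537 and 552 in Mock and 4664, 4279.6 and 4891 in Sham, a change of 3.05 (SE 0.075, adjusted p = 1.22e-09) and of 4.31 on its second probe. In Vanillin it had 1106, 1038 and 923, a Vanillin minus Sham change of -2.16 (SE 0.075, adjusted p = 3.60e-08). Cdkn1c rose by 1.09, while Cdkn1a, the p53 target p21, fell by 0.29. Of 23 p53 and cell death genes, 15 rose and 2 fell, leaving 6 without a call (median 0.35). With epithelial centring 7 were higher and 11 lower (median -0.17). Gadd45a, a DNA damage gene, fell by 0.32. Casp8, the initiator caspase of death receptors, rose by 1.19, and Gsdmd, the pore former of pyroptosis, by 0.99.

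**Figure D3:**
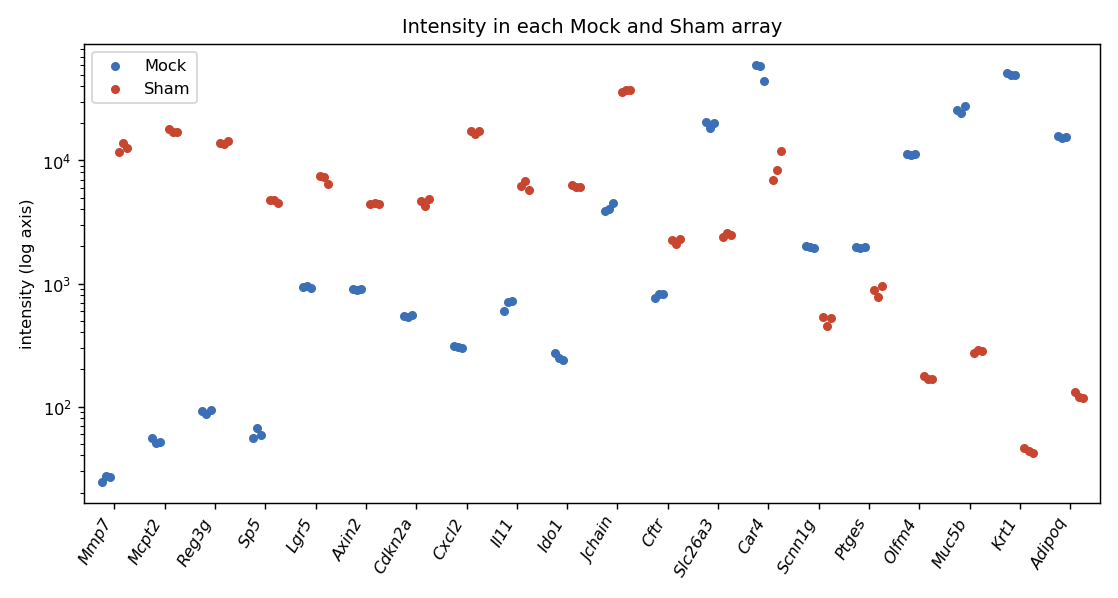
Intensity (log axis) of 20 genes in the 3 Mock arrays (blue) and the 3 Sham arrays (red), 1 point per array. The genes were picked with their values seen. For each of the 20 the groups do not overlap, as for 67.1% of all probes. Lgr5, for example, has means of 936 and 7095, and Slc26a3 has 19645 and 2478.

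Most absorptive colonocyte markers fell. Of 12 measured colonocyte markers, 3 rose and 7 fell, leaving 2 without a call (median -0.70). Slc26a3, the chloride-bicarbonate exchanger of surface colonocytes, had 20521, 18318 and 20096 in Mock and 2402, 2573 and 2459.6 in Sham. Car4, a carbonic anhydrase of the brush border that works beside it, had 59891, 59114 and 44522 in Mock and 6969, 8385 and 12027 in Sham. Both were lower in all Sham arrays, with changes of -2.98 (SE 0.089, adjusted p = 4.77e-09) and -2.60 (SE 0.189, adjusted p = 2.38e-06). Car1 fell by 1.37, but its second probe gave -0.03. The brush-border protease gene Mep1a fell by 1.48 and Tmigd1 fell by 1.66. Guca2b, or uroguanylin, a peptide that raises cGMP and chloride secretion, ran the other way, with 4918, 5065 and 4695 in Mock and 15639.8, 13228 and 14597 in Sham and a rise of 1.56 (SE 0.069). Its relative Guca2a, or guanylin, rose by 0.21 and was not called without Sham replicate 2 (adjusted p = 0.0514). Without Sham replicate 2 only 1 colonocyte marker rose, and with epithelial centring they were 1 higher and 11 lower (median -1.21). The sodium-proton exchanger gene Slc9a3 rose by 0.22 as deposited, was not called without Mock replicate 3 (adjusted p = 0.0511) or Sham replicate 2 (adjusted p = 0.0563), and was lower with epithelial centring. The water channel gene Aqp8 was not called (-0.01, SE 0.048, adjusted p = 0.827).

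Across 31 measured genes of salt, water and acid-base transport, 8 rose and 16 fell, leaving 7 without a call (median -0.38), and with epithelial centring 5 higher and 25 lower (median -0.89). Scnn1g, the gamma subunit of the epithelial sodium channel, had 2013, 1973 and 1939 in Mock and 536, 451 and 521 in Sham, so that every Sham array lay under every Mock array (change -1.95, SE 0.067, adjusted p = 1.32e-08). Scnn1b (-0.38, SE 0.165, adjusted p = 0.0759) and Scnn1a (-0.11, SE 0.108, adjusted p = 0.398) were not called, though Scnn1b was called lower with the 6 Mock and Sham arrays alone (adjusted p = 0.0329), with array weights (adjusted p = 0.0251) and without Vanillin replicate 1 (adjusted p = 0.0196). Hsd11b2, the enzyme that keeps glucocorticoids off the aldosterone receptor, fell by 1.48, and the receptor gene Nr3c2 fell by 0.48. Atp12a, the colonic proton pump, fell by 1.75. Some genes of chloride secretion rose: Cftr, the crypt chloride channel, had 760.3, 819 and 829 in Mock and 2265, 2115 and 2319 in Sham (change 1.46, SE 0.076), Slc12a2, which loads chloride into crypt cells, rose by 1.44 (SE 0.061), and Kcnq1, a potassium channel that sustains secretion, rose by 1.05 (SE 0.161). These 3 rises remained rises with epithelial centring. Aqp4 rose by 3.23 and Aqp3 by 0.30, and Car3, an enzyme of fat and muscle, fell by 6.27 in the order of the adipocyte list (62592 in Vanillin).

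**Figure D4:**
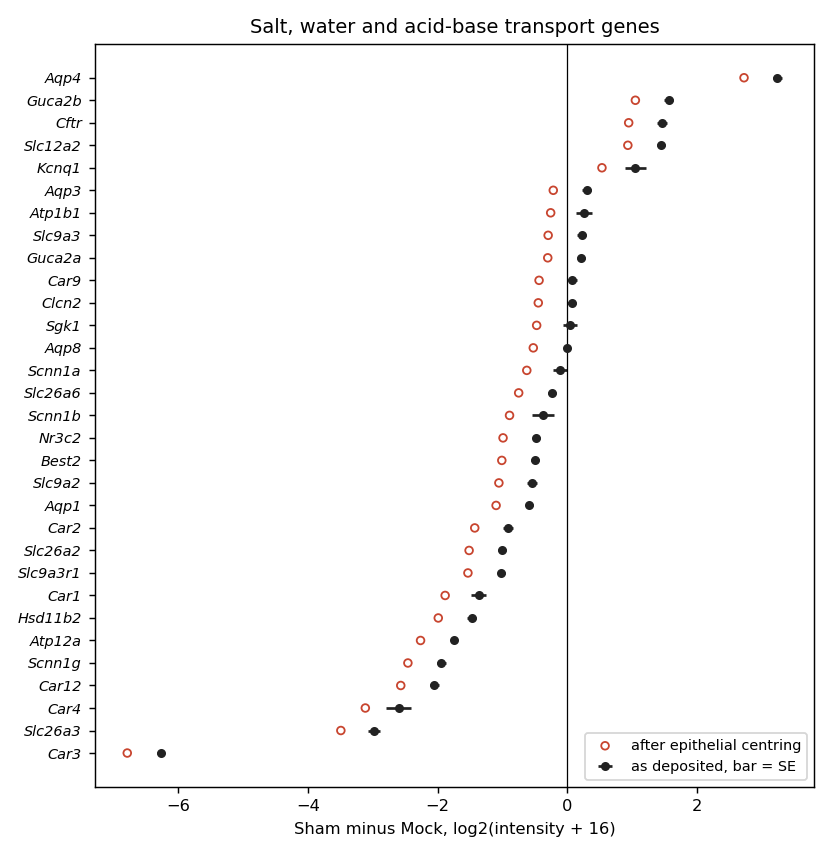
Sham minus Mock change, log2(intensity + 16), of 31 salt, water and acid-base transport genes, with SE bars (n = 3 arrays per group) and, as open red circles, the same change after epithelial centring. Slc26a3, Car4 and Scnn1g lie left of 0 and Aqp4, Guca2b, Cftr and Slc12a2 right of it under both scalings.

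Most enzymes of detoxification fell. Of 35 listed genes 20 had a probe, and 5 rose and 13 fell, leaving 2 without a call (median -0.74), and with epithelial centring 3 were higher and 16 lower (median -1.25). The drug efflux pump gene Abcb1a fell by 1.76, the glutathione transferase gene Gstt1 fell by 1.56, and the sulfotransferase genes Sult1a1 and Sult1d1 had changes of -1.38 and -1.21. Sult1a1 had 18384, 19925 and 18539 in Mock and 7455, 7366 and 6964 in Sham. Neither Abcb1a nor Sult1a1 was higher in Vanillin, where Abcb1a had a mean of 427 and Sult1a1 5152, below the Sham means of 673 and 7262. Aldh1a3, which makes retinoic acid, rose instead, with 2376, 2204 and 2341 in Mock and 14524, 16367 and 14838 in Sham (change 2.71, SE 0.073, adjusted p = 2.27e-09), whereas its relative Aldh1a1 fell by 1.86. The carboxylesterase gene Ces1g rose by 1.73, the glutathione transferase genes Gstp1 and Gstm1 by 0.84 and 0.52, and the glucuronosyltransferase gene Ugt2b34 by 0.25. Among genes of butyrate and ketone use, of 16, 4 rose and 9 fell, leaving 3 without a call (median -0.16), and with epithelial centring 1 were higher and 13 lower (median -0.67). The butyrate carrier Slc5a8 fell by 0.60 (SE 0.127), while the monocarboxylate carrier Slc16a1 was not called (0.26), and the receptor Hcar2, also an adipocyte and immune gene, fell by 2.18. Against most of that list, Ppargc1a, a coactivator of mitochondrial genes, rose by 0.84 and Ffar2, a receptor for short-chain fatty acids, by 0.62. Acads, which oxidises butyrate, rose by 0.18, and was not called without Mock replicate 2 (adjusted p = 0.0857), Sham replicate 1 (adjusted p = 0.0663) or Sham replicate 3 (adjusted p = 0.0817).

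Goblet cell products rose as deposited. Of 12 goblet cell markers, 7 rose and 1 fell, leaving 4 without a call (median 0.31), though with epithelial centring they were 3 higher and 7 lower (median -0.21). Muc2, the gel-forming mucin of colon, had 22389, 23655 and 22389 in Mock and 55299.9, 57984 and 61137 in Sham, and rose by 1.35 (SE 0.053, adjusted p = 3.06e-08). Retnlb and Spink4, small secreted goblet cell proteins, sat at the top of the range in Sham (65509 each), so their changes of 0.53 and 0.97 are compressed, and Retnlb was not called with epithelial centring. Spdef, which completes goblet cell maturation, was the member that fell (-0.87, SE 0.063). Of 13 enteroendocrine markers, 7 rose and 5 fell, leaving 1 without a call (median 0.19), and with epithelial centring 1 were higher and 9 lower (median -0.33). With the mean of all probes of each gene the median was -0.05. Nts, which encodes neurotensin, rose by 1.61 and Gcg, which encodes glucagon-like peptides, fell by 0.67. Pax6, a regulator of these cells, Insl5, a peptide of distal colon, and Cck, or cholecystokinin, had changes of -0.82, -0.36 and -0.26. Chga, or chromogranin A, fell by 0.15 (SE 0.051, adjusted p = 0.0332), a call that was lost without Mock replicate 2 or 3 or Sham replicate 1 or 2 (adjusted p from 0.0581 to 0.109) and with the replicate block (adjusted p = 0.0508). Of 11 tuft cell markers, 3 rose and 4 fell, leaving 4 without a call (median -0.04), and with epithelial centring 1 were higher and 8 lower (median -0.55). Pou2f3, the tuft cell regulator that is also a keratinocyte factor, fell by 3.42 and had 493 in Vanillin, in the order of the squamous list, while Trpm5, a taste-type channel, rose by 0.57 and was not called with epithelial centring.

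The mucin genes Muc5b and Muc5ac, which are typical of other organs, fell. Muc5b, a mucin of airway and glandular ducts, had 25858, 24390.4 and 27952 in Mock and 269.9, 286 and 282 in Sham, and in Vanillin 182, 246 and 228. Its level was high in the 3 Mock arrays alone (change -6.46, SE 0.101, adjusted p = 5.60e-11), and the gene is among the decreases picked for a Vanillin level near Sham. Of the 18 squamous markers 16 were called higher in Vanillin than in Sham, as were 15.7% of all probes. Muc5ac fell by 1.97 and St6galnac1, a sialyltransferase of goblet cells, fell by 2.09. The rest of the 25 mucin and mucin glycosylation genes leaned upward: in all, 17 rose and 4 fell, leaving 4 without a call (median 0.51), and St3gal4, a sialyltransferase, among those that fell (-0.20), with Muc4 at 1.90, Galnt3 at 1.36 and Fut8 at 1.27. With epithelial centring they were 8 higher and 8 lower (median -0.01).

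Junction genes moved both ways. Of 22, 14 rose and 6 fell, leaving 2 without a call (median 0.44), and with epithelial centring 8 were higher and 9 lower (median -0.07). Cldn2, a claudin that forms cation pores in leaky epithelium, had 3051, 3239.7 and 3257 in Mock and 10494, 11585 and 10414 in Sham (change 1.76, SE 0.059, adjusted p = 1.08e-08), and its pore-forming relative Cldn15 rose by 1.48. Cldn4 rose by 1.15. The sealing claudin gene Cldn1 fell by 4.45, and the plaque genes Pkp3, Jup and Dsp had changes of -1.57, -1.49 and -0.90. Dsc2, of the same class, fell from a mean of 13553 to 6751. Cldn8, a sealing claudin of colon, fell by 0.28. These genes are also active in stratified epithelium, and the part of such tissue in their changes was not tested. Cldn1 had means of 16620.2, 746 and 15099.5 in Mock, Sham and Vanillin, the order of the squamous list. Jup and Dsc2 were only slightly above Sham in Vanillin, with 1087 and 6878 against 953 and 6751 in Sham.

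Most matrix protease genes rose, and several share a promoter sequence. Of 20 measured proteases, activators and inhibitors, 15 rose and 2 fell, leaving 3 without a call (median 1.05), and with epithelial centring 13 higher and 5 lower (median 0.53). Mmp13, a collagenase, had 603, 614 and 629 in Mock and 11318, 11632 and 11073 in Sham (change 4.17, SE 0.044, adjusted p = 5.46e-12). Mmp3 rose by 2.88, Mmp8 of neutrophils by 4.24, Mmp9 by 2.31 and the inhibitor Timp1 by 2.87. Plat and Plaur, which activate plasmin and bind its activator, rose by 2.52 and 2.74, but Plau, the urokinase itself, fell by 0.66. Mmp12, a macrophage elastase, rose by 0.47 and was not called without Sham replicate 2 (adjusted p = 0.064) or Sham replicate 3 (adjusted p = 0.0579), and with epithelial centring it had -0.04 (adjusted p = 0.794). Timp3, an inhibitor bound to matrix, fell by 0.24 and was not called without Mock replicate 2, Mock replicate 3, Sham replicate 1 or Sham replicate 3 (adjusted p from 0.0672 to 0.0786). Without Mock replicate 2 or Mock replicate 3, 1 member of the list and not 2 fell. RefSeq windows of the same kind were found for 12 of the 15 members that rose. The AP-1 motif TGANTCA, searched on both strands, was in 6 of the 12 (Mmp3, Mmp7, Mmp10, Mmp12, Mmp13 and Plaur). It was in 7.6% of the 13980 genes on the array that have a window. Mmp8, with a larger rise than Mmp13, is not among the 6. The windows of Mmp7, Mmp10 and Mmp13 are shown because the motif lies close to the start in each. All are on the plus strand of chromosome 9, with the match in capitals. It begins 63 bases before the start in Mmp7 and Mmp10 and 35 before it in Mmp13. The second RefSeq window of Mmp7 has no match.
Mmp7 (chr9:7691840-7692139): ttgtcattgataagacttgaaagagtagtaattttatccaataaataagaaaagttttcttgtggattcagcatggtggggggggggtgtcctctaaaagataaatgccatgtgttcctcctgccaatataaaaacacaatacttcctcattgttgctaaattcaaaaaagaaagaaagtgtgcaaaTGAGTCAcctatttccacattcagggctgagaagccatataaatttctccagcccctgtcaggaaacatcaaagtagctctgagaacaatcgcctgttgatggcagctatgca
Mmp10 (chr9:7502092-7502391): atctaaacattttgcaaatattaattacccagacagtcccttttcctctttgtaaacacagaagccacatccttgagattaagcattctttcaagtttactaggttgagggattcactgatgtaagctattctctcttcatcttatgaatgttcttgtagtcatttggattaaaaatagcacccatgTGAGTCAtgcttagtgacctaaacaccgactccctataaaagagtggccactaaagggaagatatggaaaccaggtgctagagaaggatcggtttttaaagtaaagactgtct
Mmp13 (chr9:7272264-7272563): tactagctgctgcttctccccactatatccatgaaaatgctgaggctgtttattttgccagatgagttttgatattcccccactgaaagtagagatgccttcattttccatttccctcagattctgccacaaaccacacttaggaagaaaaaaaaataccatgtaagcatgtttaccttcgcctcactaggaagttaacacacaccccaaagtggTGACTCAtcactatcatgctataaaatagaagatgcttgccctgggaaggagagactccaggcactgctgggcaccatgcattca

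The chemokines Cxcl1 and Cxcl2, which attract neutrophils, rose, and with them their receptor. Of 12 such genes, 7 rose and 3 fell, leaving 2 without a call (median 0.53), and with epithelial centring 5 higher and 5 lower (median 0.02). Cxcl2 had 312, 306 and 299 in Mock and 17366, 16404 and 17425 in Sham, and Cxcl1 had 229, 207 and 215 in Mock and 5297, 4843 and 5854 in Sham. Both were more than an order of magnitude brighter in every Sham array, with changes of 5.73 (SE 0.049, adjusted p = 1.85e-12) and 4.52 (SE 0.092, adjusted p = 3.16e-10). Cxcl3 and Cxcl5, of the same family, rose by 2.35 and 1.93, and Cxcr2, the receptor on neutrophils, by 2.11. Cxcl17, an epithelial chemokine of mucous surfaces, fell by 3.75, the platelet chemokine gene Ppbp fell by 1.98 and Cxcl15, known from lung, fell by 0.34.

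Most chemokines for monocytes and lymphocytes rose. Of 20, 15 rose and 3 fell, leaving 2 without a call (median 0.89), and with epithelial centring 12 higher and 5 lower (median 0.37). Ccl3 and Ccl4 rose by 4.92 and 4.76, Ccl7 by 2.97 and Ccl2 by 2.67. Cxcl13, which draws B cells into follicles, had 206, 219.6 and 217 in Mock and 2378, 2292 and 2232 in Sham (change 3.33, SE 0.066, adjusted p = 2.80e-10). Ccl28, which draws IgA plasma cells to mucosa, fell by 0.68, Cxcl12 fell by 0.56 and Ccl22 fell by 0.53. The probe of Cxcl10 was at background in both groups (11.1 and 1.48) and gives no information.

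Among cytokines Il1b, Il6, Il11 and Lif rose and IL-36 genes fell. Of 33 measured members and receptors, 17 rose and 9 fell, leaving 7 without a call (median 0.28). With epithelial centring 10 were higher and 17 lower (median -0.24). Il11, a stromal cytokine of the IL-6 family that activates STAT3, had 597, 705 and 727 in Mock and 6261, 6812 and 5756 in Sham (change 3.19, SE 0.146, adjusted p = 9.26e-08). Socs3, the feedback inhibitor of that pathway, had 1876, 1879.7 and 1841 in Mock and 8917, 9030.1 and 8849 in Sham, and rose by 2.25 (SE 0.043). Il1b rose by 3.87, Il6 by 3.19, Lif by 1.82 and Il23a, a subunit of IL-23, by 2.23. The IL-17 genes that act downstream of IL-23 were not called: Il17a had 0.12 (SE 0.089, adjusted p = 0.286) and Il17f -0.28 (SE 0.121, adjusted p = 0.0756), at Sham means of 92.6 and 789. Without Sham replicate 1 Il17f was called lower (-0.43, adjusted p = 0.00251). Il1f6 and Il1f8, which encode IL-36 alpha and beta of keratinocytes, fell (-5.31 and -4.33), with Vanillin means (2948 and 1438) between Mock and Sham. Il22ra2, a decoy that binds IL-22, fell by 1.27. Il1f9, or IL-36 gamma, fell by 1.73, and the receptor genes Il6ra, Il6st and Il23r had changes of -0.63 (0.22 on another probe), -0.46 and -0.39. Il1rap, a shared receptor chain of IL-1, fell by 0.18 (SE 0.069, adjusted p = 0.048; 0.10 on another probe), a call that was lost without Mock replicate 2 or 3, any 1 Sham array or Vanillin replicate 1 (adjusted p from 0.0521 to 0.155), and with the replicate block, a pseudocount of 1 or the 6 arrays alone (adjusted p from 0.05 to 0.0548).

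The enzymes of prostaglandin synthesis and removal moved in different directions. Of 23, 9 rose and 9 fell, leaving 5 without a call (median 0.00), and with epithelial centring 6 were higher and 14 lower (median -0.51). Ptgs2, the inducible cyclooxygenase, had 287, 275 and 281 in Mock and 2648, 2817 and 2599.9 in Sham, a rise of 3.19 (SE 0.061, adjusted p = 2.13e-10). Ptges, which turns its product into prostaglandin E2, had 1965, 1955 and 1988 in Mock and 879.7, 784 and 946 in Sham, a change of -1.17 (SE 0.085, adjusted p = 2.46e-06). Hpgd, which breaks prostaglandins down, fell by 1.19, the uptake carrier Slco2a1 fell by 1.26 and the constitutive cyclooxygenase gene Ptgs1 fell by 1.63. Tbxas1, which makes thromboxane, rose by 1.42, and Alox5ap, needed for leukotrienes, by 1.14. Ptgs1 was high again in Vanillin (4756), in the order of the squamous list, while Hpgd was not (9257).

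Other defence genes rose with the lectins. Of 18 measured Reg and antimicrobial genes, 11 rose and 2 fell, leaving 5 without a call (median 0.60), evenly split with epithelial centring at 7 higher and 7 lower (median 0.08). Lcn2, which withholds iron from bacteria, had 3517, 3567 and 3610.4 in Mock and 13896, 15927 and 15392 in Sham (change 2.07, SE 0.056, adjusted p = 2.46e-09). Duoxa2, the maturation factor of the dual oxidase, rose by 2.28, though the oxidase gene Duox2 itself was not called (0.09) at a low mean of 132. Ltf, or lactoferrin, fell by 2.66 from 41218, and Reg2 was dim and not called (-0.13, SE 0.130, adjusted p = 0.415). Reg1 was not called either (-0.11, SE 0.045, adjusted p = 0.0638), but was lower without Sham replicate 2 (adjusted p = 0.0385). Of 21 acute-phase and complement genes, 14 rose and 4 fell, leaving 3 without a call (median 0.73), and with epithelial centring 12 were higher and 7 lower (median 0.22). Serpina3n rose by 2.54, Cfi by 2.36 and Saa3 by 1.39. Apoe, Hp and Fgb ran against the list, with changes of -0.78, -0.68 and -0.37. Orm1 fell by 5.22 and had 8158 in Vanillin, in the order of the adipocyte list.

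Ido1 and Ido2, which degrade tryptophan to kynurenine, rose together. Ido1 had 274, 248 and 239 in Mock and 6310.2, 6103 and 6061 in Sham (change 4.52, SE 0.060, adjusted p = 2.16e-11) and Ido2 rose by 1.79 (SE 0.079). Acod1, which makes itaconate in activated macrophages, rose by 4.59 where its signal was brightest and by 0.65 on a dimmer probe. The rest of the 16 arginine, polyamine and tryptophan genes changed by less than 1, apart from the arginase gene Arg1, which fell by 1.39 from 49686 to 18995. The mitochondrial arginase gene Arg2 rose by 0.32, and was lower with epithelial centring. The cationic amino acid carrier genes Slc7a2 and Slc7a1 had changes of -0.22 and -0.14, the second (SE 0.052, adjusted p = 0.0463) not called without Mock replicate 1 or 3, Sham replicate 1 or 3, or Vanillin replicate 2 or 3 (adjusted p from 0.0528 to 0.149), nor with the replicate block, a pseudocount of 1 or the 6 arrays alone (adjusted p from 0.0518 to 0.0693). In all, 11 rose and 3 fell, leaving 2 without a call (median 0.43), and with epithelial centring 2 higher and 6 lower (median -0.09).

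Interferon response and antigen presentation genes rose broadly. Of 28 measured, 26 rose and 2 fell (median 0.99), and with epithelial centring 17 higher and 7 lower (median 0.47). Ifit2 rose by 2.62, Gbp3 by 2.38, Gbp2 by 2.16 and Zbp1, a sensor of viral nucleic acid, by 3.21. Isg15, a ubiquitin-like protein, had 713, 683 and 658 in Mock and 2863, 2770.3 and 2882 in Sham (change 2.03, SE 0.060, adjusted p = 4.23e-09). The class II presentation genes H2-Aa and Cd74 rose by 0.81 and 0.61, and Cd74 was not called with epithelial centring. Irf1, an interferon-induced activator, and Mx1, an antiviral GTPase, fell (-0.64 and -0.62), and Irf1 had 0.28 on another probe and -0.18 as the mean of its probes.

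Markers of several leukocytes rose. Of 15 neutrophil markers, 11 rose and 4 fell (median 2.11), and with epithelial centring 9 were higher and 4 lower (median 1.60). Csf3r, the receptor for the neutrophil growth factor, had 88.7, 80.1 and 77.8 in Mock and 958, 899 and 825 in Sham, and Trem1, an amplifier of myeloid activation, had 94.3, 74.1 and 78.2 in Mock and 1244, 1252 and 1161 in Sham. Both rose in every Sham array over every Mock array, by 3.21 (SE 0.077, adjusted p = 1.02e-09) and 3.66 (SE 0.084, adjusted p = 7.53e-10). Retnlg, a resistin-like protein of neutrophils, had 376, 361 and 379.6 in Mock and 23009.9, 19995 and 21836 in Sham (change 5.80, SE 0.060, adjusted p = 4.85e-12). S100a9 rose by 1.16 but S100a8, its partner in calprotectin, fell by 1.19 from 194 to 76. Il1r2, a decoy receptor for IL-1, fell by 2.08 and had 11196 in Vanillin, again in the order of the squamous list. Of 12 mast cell and eosinophil markers, 11 rose and 0 fell, leaving 1 without a call (median 1.04), and with epithelial centring 8 were higher and 3 lower (median 0.52). Tpsab1 rose by 3.30, Hdc, the histamine-forming enzyme, by 3.55 and Fcer1a by 2.28. Epx, the peroxidase of eosinophils, was the marker not called as deposited (-0.21). Of 14 macrophage and monocyte markers, 9 rose and 1 fell, leaving 4 without a call (median 0.91), and with epithelial centring 8 were higher and 5 lower (median 0.40). Spp1 rose by 3.23 and Cd14 by 2.06, whereas the pan-macrophage gene Cd68 was not called (0.09, SE 0.045, adjusted p = 0.125) and Cd163 fell by 2.81. Csf1r, the receptor for the macrophage growth factor, was not called (0.16, SE 0.068, adjusted p = 0.0736), but was without Sham replicate 3 (adjusted p = 0.0268). Mpo, the peroxidase of neutrophil granules, fell by 0.30 and was not called without Mock replicate 1 (adjusted p = 0.0641) or Sham replicate 1 (adjusted p = 0.0523).

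Most B and plasma cell markers rose. Of 15 B and plasma cell markers, 11 rose and 2 fell, leaving 2 without a call (median 1.31), and with epithelial centring 8 were higher and 5 lower (median 0.80). Jchain, which joins IgA dimers, had 3863, 4018 and 4499 in Mock and 35988, 37555 and 37159 in Sham (change 3.16, SE 0.066, adjusted p = 3.80e-10), and Mzb1 and Pou2af1 rose by 3.39 and 2.24. Prdm1 and Sdc1, plasma cell genes that epithelium also expresses, had changes of -1.30 and -0.57. Pigr, the epithelial carrier of IgA, rose by 0.32 as deposited but was lower with epithelial centring. Of 14 T and NK cell markers, 7 rose and 4 fell, leaving 3 without a call (median 0.26), and with epithelial centring 3 were higher and 6 lower (median -0.26). Cd3e rose by 1.11 and Gzma by 2.22, while Cd3g and Nkg7 fell (-0.78 and -0.78). Genes of protein folding and secretion, which plasma and goblet cells use heavily, moved beside them. Of 24, 18 rose and 3 fell, leaving 3 without a call (median 0.37), with Sdf2l1 at 1.43, Creld2 at 1.20 and Pdia4 at 1.02, and with epithelial centring 6 higher and 11 lower (median -0.14). Chac1, Trib3 and Ddit3, targets of the amino acid stress response, had changes of -1.34, -0.89 and -0.43.

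**Figure D5:**
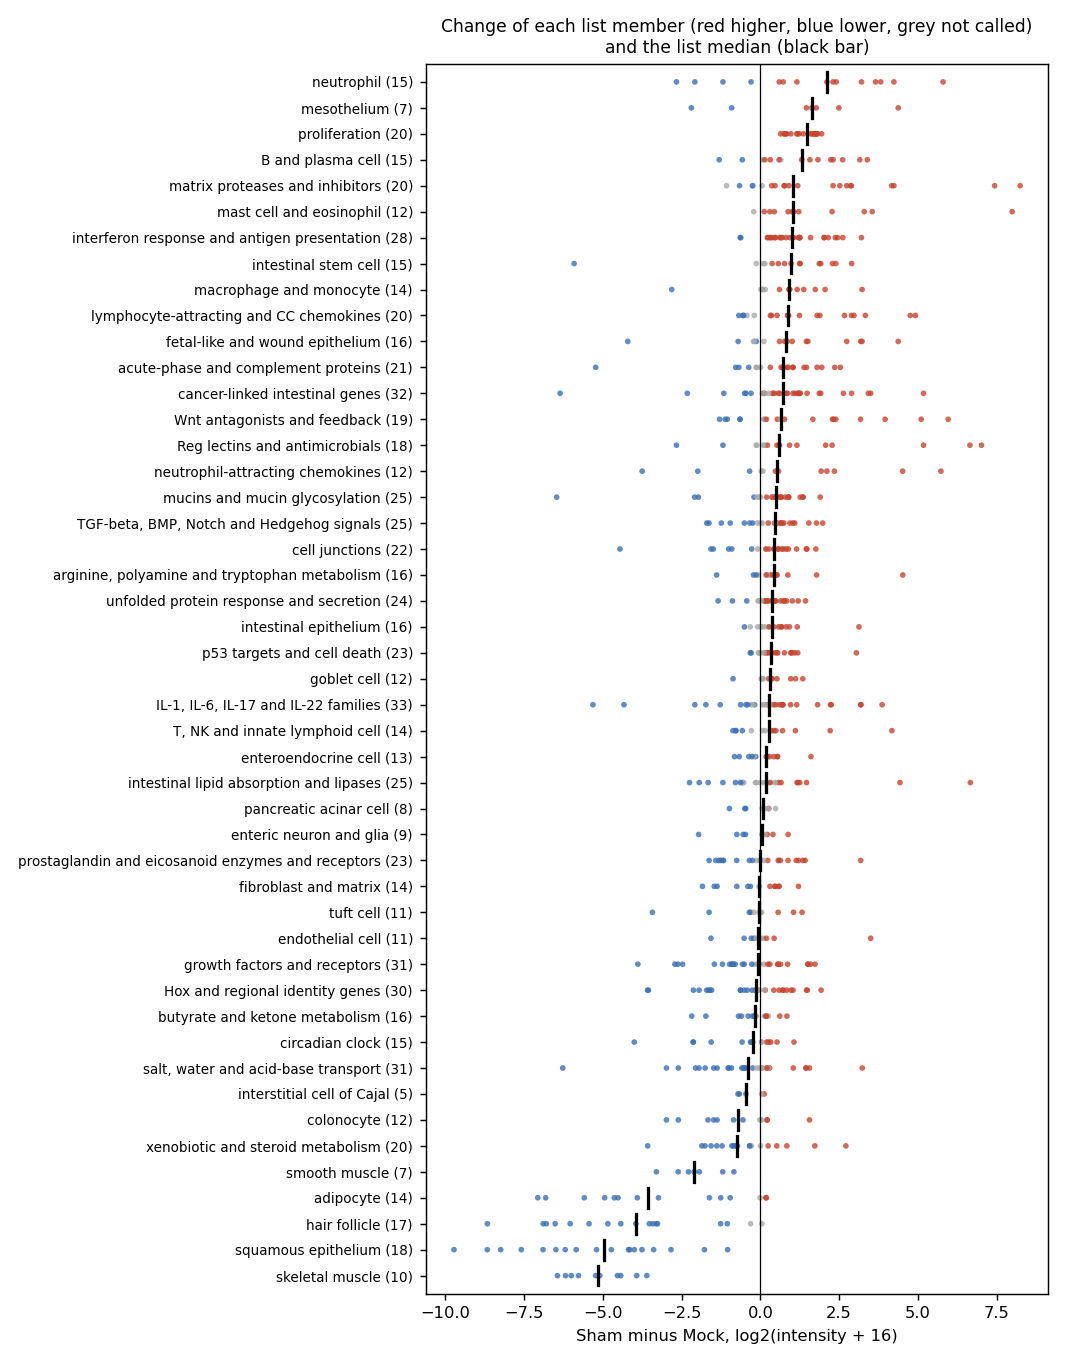
Sham minus Mock change, log2(intensity + 16), of each measured member of the 47 gene lists with 5 or more of them (points, red called higher, blue called lower, grey not called) with the list median (black bar), ordered by median and with the number measured in parentheses. Neutrophil (median 2.11) and mesothelium lists (median 1.64) are at the top, and squamous epithelium (median -4.96) and skeletal muscle (median -5.16) at the bottom.

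Growth factor genes moved both ways. Of 31, 10 rose and 14 fell, leaving 7 without a call (median -0.08), and with epithelial centring 6 were higher and 22 lower (median -0.60). Ereg, an ErbB ligand of injured epithelium, had 1533, 1513 and 1507 in Mock and 4329.8, 4493 and 4219 in Sham (change 1.51, SE 0.045, adjusted p = 4.38e-09), and Nrg1, a stromal ErbB ligand, rose by 1.59. Egf fell by 2.71 and the receptor genes Erbb2 and Erbb3 had changes of -0.80 and -0.51. Igf1 rose by 1.74 on its brightest probe but had -0.71 on another, and Igfbp2 fell by 3.89. Of 25 genes of TGF-beta, BMP, Notch and Hedgehog signalling, 14 rose and 7 fell, leaving 4 without a call (median 0.48), and with epithelial centring 7 were higher and 11 lower (median -0.03). Inhba, the activin A subunit, and Grem1, a secreted BMP antagonist, rose by 1.98 (SE 0.071) and 1.78 (SE 0.047), and Dll4 by 1.54. Tgfb3 and Tgfb2 had changes of -1.63 and -1.70, though another Tgfb2 probe gave 0.00. The Notch ligand genes Dll1 and Jag1 had -0.95 and -1.24, and the Hedgehog target Gli1, Inhbb and Bmp2 had -0.51, -0.33 and -0.24, the last not called without Mock replicate 1 (adjusted p = 0.052). Stromal markers were mixed: of 14 fibroblast and matrix genes, 6 rose and 6 fell, leaving 2 without a call (median -0.03), and with epithelial centring 1 were higher and 9 lower (median -0.55). Fn1 rose by 1.21, and Lum had a change of -1.46.

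Position-marking Hox genes moved both ways. Of the 9 HoxC genes with a probe, 8 fell and 0 rose (median -1.64), whereas of 10 HoxA genes 9 rose and 0 fell (median 0.62). HoxB genes fell in 7 of 10 and rose in 1, and HoxD genes rose in 3 and fell in 3 of 9. With epithelial centring 5 HoxA genes were higher and 1 lower (median 0.10), while 9 HoxB, 9 HoxC and 7 HoxD genes were lower and 1 HoxB and 2 HoxD genes higher. Of the 30 genes on the list of Hox and regional identity genes, 11 rose and 14 fell, leaving 5 without a call (median -0.13), and with epithelial centring 7 were higher and 20 lower (median -0.65). Hoxc13, active in hair and nail, fell by 3.58 (SE 0.151, adjusted p = 5.18e-08) and the hindlimb gene Pitx1 fell by 3.55 (SE 0.053, adjusted p = 4.16e-11), beside the hair follicle list (15 of 17 lower, median -3.95). Hoxa10 had 1964, 2083 and 1953 in Mock and 5657, 5887 and 5163 in Sham, a rise of 1.47, and Hoxb9 rose by 1.93. The hindgut genes Hoxd13 and Hoxb13 were bright in both groups, at 6018 and 20674 in Mock and 10734 and 18578 in Sham, with changes of 0.83 (SE 0.066) and -0.15 (SE 0.045), of which the second was not called without Mock replicate 2 (adjusted p = 0.0611). Hoxa13 was not called (-0.08).

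Clock output genes were lower in Sham. Hlf, Tef and Dbp encode the PAR-domain factors that the clock switches over the day. Dbp had 5645, 5913 and 5389 in Mock and 1362, 1221 and 1258 in Sham, a change of -2.13 (SE 0.079, adjusted p = 2.05e-08), Tef fell by 2.13, and Hlf fell from a mean of 1084 to 53. Per2 fell by 1.56, while Npas2 rose by 1.07 and the core genes Arntl and Clock changed by -0.29 and 0.20, the latter turning negative with epithelial centring. Nr1d1, a clock repressor, rose by 0.33, again turning negative with epithelial centring. Of 15 measured clock genes, 5 rose and 8 fell, leaving 2 without a call (median -0.24), and with epithelial centring 1 were higher and 13 lower (median -0.76). Nfil3, a repressor of the same sites as Dbp, and Bhlhe40 rose by 0.53 and 0.26. The sources used here do not state the hour of tissue collection.

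The largest decreases were mostly genes of skin. All 30 of them, from -7.36 to -10.66, had Mock means above 4000, and all 30 were called higher in Vanillin than in Sham. Over all probes 15.7% were called higher in Vanillin. Low Sham values picked the 30 and enter this comparison too, so neither the count nor a member's p-value is a test apart from that choice. Krt1, a keratin of cornifying epidermis, had 51882, 49845 and 49642 in Mock and 46, 43.8 and 41.9 in Sham and 26012, 23878 and 24193 in Vanillin. Its level in Sham was near background, and the Vanillin minus Sham change was 8.69 (SE 0.053, adjusted p = 8.96e-13). The 30 also hold the involucrin gene Ivl, the desmosome genes Dsg1a, Dsc1 and Cdsn, the kallikreins Klk7, Klk10 and Klk13, the hair keratin Krt25, the small proline-rich genes Sprr1b, Sprr3 and Sprr4, the late envelope gene Lce1a2, and Hrnr, Krt77, Slurp1, Defb6, Serpinb12, Bpifc, Cst6, Fam25c, Sdr16c6, Fads2b and Dlx5. The second probes of Cst6 and Dlx5 gave 0.12 and -2.88, against -8.87 and -7.36 on the brighter ones. Rptn and Lce3f, of the cornified envelope, fell (-9.46 and -8.16), Gjb6, a connexin of skin, fell by 7.54, and Awat1 and Elovl4, which make sebaceous and barrier lipids, had changes of -7.56 and -7.48. The squamous keratins differed in how far their Vanillin level lay above Sham. Krt5, of the basal layer, had means of 34783 in Mock, 590.3 in Sham and 16967 in Vanillin. Krt4 and Krt13, of moist stratified epithelium that does not cornify, had 36661 and 64658 in Mock, 486 and 3637 in Sham, and 2609 and 6376 in Vanillin, much nearer Sham. Krtdap had the largest fall, a change of -10.66, but its Sham arrays read 0, 87.6 and 12.8, so its size is uncertain. Krt14, the basal layer partner of Krt5, had 61444, 62540.4 and 62929 in Mock and 18624, 17789 and 18221 in Sham, a change of -1.77 (SE 0.563, adjusted p = 0.0227). Its Vanillin arrays, whose spread enters the SE, read 64969, 63608 and 11506. Its call was lost without Mock replicate 2, Mock replicate 3 or any 1 Sham array (adjusted p from 0.0525 to 0.058). The muscle actin gene Acta1 had 34927, 35708 and 35264 in Mock and 1047, 993 and 1019 in Sham, and the adipokine gene Adipoq 15812, 15145 and 15508 in Mock and 130.2, 119.8 and 117 in Sham. Acta1 and Adipoq were high in the same arrays as Krt1, with Vanillin at 21503, 22568 and 24752 and 13099, 13495 and 13366. Of 14 adipocyte genes, 2 rose and 11 fell, leaving 1 without a call (median -3.57), and with epithelial centring 0 were higher and 14 lower (median -4.08). The rises as deposited were of 0.18 in the lipase gene Lpl and 0.19 in Pparg, whose means of 4.22 and 7.15 are at background and which was not called with a pseudocount of 64 (adjusted p = 0.127). Of 7 smooth muscle markers, 0 rose and 7 fell (median -2.10), and with epithelial centring 0 were higher and 7 lower (median -2.61). Acta2, the smooth muscle actin, had means of 65428, 36624 and 40824 in Mock, Sham and Vanillin, and Des, or desmin, had 11197, 1824 and 3092.

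A further 20 decreases were picked because the Vanillin mean was within 0.5 of the Sham mean on the log2 scale, so their order cannot be read as a test. Besides Muc5b and Slc26a3 they include Krt76, a keratin of oral palate and other stratified epithelium (-6.45), the milk protein genes Csn1s2a (-5.72) and Csn2 (-3.51), and the salivary gland gene Smgc (-5.51, with 0.07 on another of its 5 probes). Has2, a hyaluronan synthase, had 2271, 2396 and 2248 in Mock and 248, 259 and 224 in Sham, and Il17b had 3220.4, 3425 and 3439.8 in Mock and 409, 411 and 392 in Sham. Their Vanillin arrays had 238, 226 and 218 and 503, 480.2 and 461, each within 0.5 of the Sham mean on the log2 scale. The others were Cldn22, Tmem213, Serpinb11, Angptl7, Pcp4, Padi4, P3h4, Sh3bgr and Ngb, with changes from -2.61 to -6.15. The phospholamban gene Pln fell by 3.12 and the fast muscle gene Actn3 fell by 3.92. Adam28 is also among them, and its Sham replicate 3 has a value of 1.22 that stands apart from 211 and 217 in the others. Vanillin replicate 3 likewise read 0.889 beside 177.8 and 194.7, and both low readings enter the means that placed Adam28 here. Its Sham minus Mock change was -3.28 with Sham replicate 3 and -2.03 without it (adjusted p = 0.112). Another of the 3 Adam28 probes gave 0.01. The brightest was also not called without any 1 of the Mock arrays (adjusted p from 0.073 to 0.0813).

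The list of fetal-like and wound epithelium genes rose in part. Of 16 measured, 10 rose and 3 fell, leaving 3 without a call (median 0.81), and with epithelial centring 9 higher and 6 lower (median 0.30). Krt7, a keratin of simple ducts, had 12672, 13280.1 and 12603 in Mock and 35103, 36432 and 34655 in Sham (change 1.46, SE 0.053, adjusted p = 1.68e-08). Clu, or clusterin, a marker of revival stem cells after injury, rose by 0.85 (SE 0.047), and Ccn2, a target of YAP and TGF-beta, by 1.01 (SE 0.050). Trim29, a gene of stratified epithelium, fell by 4.21 to 566 and had 5979 in Vanillin. The annexin gene Anxa8 fell by 0.70. Anxa1, of resolving inflammation, fell by 0.13 (SE 0.049, adjusted p = 0.0493) at Mock and Sham means of 51624 and 47251, a call that was lost without any 1 Mock array, Sham replicate 2 or 3 or Vanillin replicate 2 (adjusted p from 0.0727 to 0.125), with the replicate block (adjusted p = 0.0865) and with a pseudocount of 1 (adjusted p = 0.0546).

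Genes of lipid handling moved both ways, about as often as all genes. Of 25 measured, 9 rose and 7 fell, leaving 9 without a call (median 0.18). Over all genes 39.3% rose and 25.3% fell (median 0.11), so these counts do not set the list apart. With epithelial centring 6 were higher and 13 lower (median -0.33). Apob, which packs lipoproteins, rose by 1.47 and Mogat2, which rebuilds triglyceride in enterocytes, by 1.17. Scd1, a desaturase of sebaceous gland and fat, had 63146, 65507 and 61257 in Mock and 13998, 13202 and 12817 in Sham, a change of -2.25 (SE 0.050, adjusted p = 6.51e-10), and 65135 in Vanillin, and Dgat2 fell by 1.66. Fabp6, the bile acid carrier of ileum, fell by 1.94 (SE 0.113, adjusted p = 5.05e-07) and was as low in Vanillin (167).

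Enteric nerve markers moved both ways. Of 9 neuron and glia markers, 3 rose and 4 fell, leaving 2 without a call (median 0.05), and with epithelial centring 1 were higher and 6 lower (median -0.47). Vip, the vasoactive peptide of secretomotor neurons, rose by 0.88, and S100b of glia fell by 1.96 from 204. Of 5 markers of interstitial cells of Cajal, the gut pacemakers, 1 rose and 3 fell, leaving 1 without a call (median -0.46), and with epithelial centring 0 were higher and 5 lower (median -0.97). Kit, their growth factor receptor that mast cells share, was the riser as deposited (0.13, SE 0.047, adjusted p = 0.0472), and its call was lost without any 1 Mock array, Sham replicate 1 or 2 or Vanillin replicate 1 or 2 (adjusted p from 0.0508 to 0.138), with the replicate block (adjusted p = 0.0545), with median centring (adjusted p = 0.0511), with a pseudocount of 1 (adjusted p = 0.0512) and with the 6 arrays alone (adjusted p = 0.0565). Of 3 erythroid markers, 0 rose and 2 fell, leaving 1 without a call (median -0.76), and with epithelial centring 0 were higher and 2 lower (median -1.28). Slc4a1 fell by 1.13 and Alas2 fell by 0.76. Epb42 was not called (0.28, SE 0.111, adjusted p = 0.0538), but was higher without Vanillin replicate 1 (adjusted p = 0.00329) or Vanillin replicate 2 (adjusted p = 0.0298), and with the 6 arrays alone (adjusted p = 0.00404).

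Several genes high in Sham were lower in Vanillin. Both comparisons use the Sham arrays, so their values are given side by side and not tested against each other. Over all probes 32.2% were called lower and 15.7% higher in Vanillin than in Sham. The counts of this paragraph are as deposited, without epithelial centring. The mean of the epithelial markers was 13.15 to 13.19 in Vanillin arrays and 13.34 to 13.43 in Sham arrays. Centring on it would therefore raise every Vanillin minus Sham change. The part of the tissue mixture in these differences was not tested. Lgr5 had 4329, 4097 and 3930.3 in Vanillin, a Vanillin minus Sham change of -0.78 (SE 0.066, adjusted p = 1.79e-05), and Mmp7 had 5975, 6145 and 6054 with a change of -1.07 (SE 0.068, adjusted p = 2.68e-06). Of the 20 cell cycle genes 17 were lower and 0 higher in Vanillin than in Sham (median -0.54), and of the 28 interferon and presentation genes 21 were lower and 3 higher (median -0.46). Neutrophil genes had the other order. Of 15, 12 were higher and 0 lower in Vanillin (median 0.69), and Trem1 had 3381, 3855 and 3558. Most colonocyte markers were lower again in Vanillin: of 12 colonocyte markers 9 were lower and 1 higher, with Slc26a3 at 1541, 1789 and 1976.

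The labelled sex was also checked. Xist, the RNA of the inactive X chromosome, had 599.8, 596 and 604 in Mock and 1195, 1162 and 1171 in Sham, and the Y-linked gene Kdm5d was near background at 49.3 and 43.6, which goes with the female label.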

How the data were processed

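The deposited table holds intensity values on a linear scale, 1 per probe and array, already scaled between arrays by the authors: sorted log2 values differ by at most 0.109 between arrays, and median intensities are 319.6 to 320.1. The sources used here give no background correction or scanner, while limma is named in the submitters' processing notes. Values below 0 (3 to 14 per array) were set to 0. Of 26423 probes 20377 carry 1 gene symbol of the platform annotation, 2126 of these replaced through RefSeq synonyms, and 6046 have none.

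log2(intensity + 16) was fitted with limma 3.58.1 (R 4.3.3), lmFit and eBayes over all 9 arrays and 26423 probes, with 6 residual and 2.69 prior degrees of freedom. The code was tested on simulated data. The brightest of several probes stands for a gene (2278 genes), and probes that disagree are named. The naming rule took the 30 largest increases and 30 largest decreases among called genes whose groups do not overlap, 20 decreases with Vanillin within 0.5 of Sham, up to 4 members of each list with the smallest p, any called against over 50% of its list, and known anchor genes. Of 184 members with the smallest p 128 are named, a choice made with values seen, and all 102 called against their list are named. Genes outside this rule were chosen after their values were seen. The members and lists were chosen with earlier results of these data known. The number of arrays limits the precision. At most 1.17% of values were equal between arrays of a group, so none is a copy. Same-numbered Mock and Sham arrays did not deviate together (correlations of -0.104, -0.016 and -0.117), so the numbers were not taken as pairs. Vanillin arrays were not part of that check. Alternatives were the pseudocount, a filter on dim probes, the 6 arrays alone, array weights, an intensity trend, median and epithelial centring, the mean of all probes and each array left out. Of the anchor genes Mcpt1, Notum, Nos2, Il22, Ly6a, Nox1, Odc1, Myh11, Cyp2c55 and some others were not analysed here.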

Additional observations from a re-analysis of the deposited data

How the results depend on the processing

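Of the alternatives, epithelial centring moved the counts most: 2820 probes were then higher and 17531 lower, against 9648 and 6139 as deposited, because every change falls by 0.514. It turned the sign of genes with small rises or none: Acads (-0.34), Aqp3 (-0.22), Arg2 (-0.20), Bhlhe40 (-0.25), Csf1r (-0.36), Guca2a (-0.30), Kit (-0.39), Lpl (-0.34), Pparg (-0.32), Ugt2b34 (-0.27), Cd68 (-0.43), Clca1 (-0.48), Clock (-0.32), Dkk1 (-0.41), Dkk4 (-0.37), Duox2 (-0.42), Il17a (-0.40), Lgals4 (-0.46), Mmp12 (-0.045), Nr1d1 (-0.185), Pigr (-0.20) and Slc9a3 (-0.299). Under the other settings run, the counts of called probes stayed within 1.5 times. With the replicate block 9470 probes were higher and 6028 lower, and of the genes named in the text Anxa1, Chga, Il1rap, Kit and Slc7a1 lost their call (adjusted p from 0.05 to 0.0865). Leaving out 1 array gave 8716 to 9989 higher and 5549 to 6233 lower probes. For named genes with several probes, taking their mean moved the change by over 1.5 times in Acod1, Acta2, Adam28, Birc5, Car1, Ceacam12, Cst6, Epcam, Igf1, Il6ra, Irf1, Prom1, Smgc and Tgfb2. Signal over background limits the dim genes, since about 20% of probes read below 50, and the top of the range limits the bright ones.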
